A study of Mus musculus with 6 samples.

Results

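Each array of this inner ear study carried 3372 mouse probes spotted at 10 positions, among 145548 probes that are not controls. The other 142176 probes had 1 spot each, and no probe had any other number of spots. The 10-spot probes were chosen by this number alone, which the array's design sets and no measured value enters. They occupied 33720 of the 175896 spots that are not controls on each array. Of their names, 2162 begin with CUST_ and 1210 with A_, and the files pair neither kind with a gene.

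Total RNA of whole inner ears was hybridized to 6 arrays read in 1 colour (Cy3), 1 mouse to an array. They came from Fscn2+/+ mice (n = 3) and Fscn2-/- mice (n = 3), all at 8 weeks of age and not limited to 1 sex. Both genotypes were kept on C57BL/6J, and the Fscn2-/- animals were homozygous for a null mutation made with TALEN vectors against the first exon. The mutation is carried by every tissue of the animal, so an effect need not be limited to the inner ear, the only tissue measured here. Fscn2+/+ arrays 1 and 2 lay on 1 slide, and Fscn2+/+ array 3 lay on the other slide with Fscn2-/- arrays 1, 2 and 3. Because the probes have no gene names here, neither the tissue nor Fscn2 itself could be checked against the labels.

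Fscn2 encodes fascin-2, a protein that bundles actin filaments in the stereocilia of hair cells, the sensory cells of the inner ear. An oligonucleotide probe is a short single strand fixed to the glass, and labelled RNA of the complementary sequence binds it and gives fluorescence. A probe printed once gives a single reading of that RNA per mouse. A probe printed many times at scattered positions also shows how far the reading moves with the place on the glass, and scanner software uses such probes to correct gradients and to flag deviating spots.

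The sequences of the probes with the largest genotype differences are shown first, each 60 bases long, since no gene name identifies them. Of those brighter in Fscn2-/- mice, the following were followed through all 10 spots. In CUST_OEV3_054868 the capitals mark 59 bases that it shares with a single-spot probe, given on the line below it.
A_51_P126620: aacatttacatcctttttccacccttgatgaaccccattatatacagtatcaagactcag
CUST_OEV3_092900: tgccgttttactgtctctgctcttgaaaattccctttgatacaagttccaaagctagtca
CUST_OEV3_069710: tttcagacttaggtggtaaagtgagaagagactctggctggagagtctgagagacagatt
CUST_OEV3_044360: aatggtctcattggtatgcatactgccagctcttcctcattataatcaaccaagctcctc
CUST_OEV3_000248: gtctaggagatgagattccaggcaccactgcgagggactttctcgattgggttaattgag
CUST_OEV3_054868: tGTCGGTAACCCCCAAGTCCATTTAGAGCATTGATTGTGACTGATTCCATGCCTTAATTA
CUST_OEV3_013177: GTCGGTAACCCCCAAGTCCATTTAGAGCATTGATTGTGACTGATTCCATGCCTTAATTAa

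The 4 probes that were dimmer in Fscn2-/- mice all have names of the A_ kind. In A_55_P2565734 the capitals mark 34 bases shared with the single-spot probe A_55_P2565704, which is printed under it.
A_55_P2119552: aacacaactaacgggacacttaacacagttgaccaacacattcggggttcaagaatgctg
A_52_P130362: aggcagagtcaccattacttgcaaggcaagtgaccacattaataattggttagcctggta
A_55_P2736874: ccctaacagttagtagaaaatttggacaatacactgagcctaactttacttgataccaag
A_55_P2565734: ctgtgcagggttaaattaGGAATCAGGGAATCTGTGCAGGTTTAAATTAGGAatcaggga
A_55_P2565704: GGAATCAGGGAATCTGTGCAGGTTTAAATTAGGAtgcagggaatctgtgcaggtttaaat

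The remaining sequences are of 10-spot probes that serve as references. A_55_P2131438 was the brightest and shares the 29 capital bases with several other bright probes, CUST_OEV3_010314 had the smallest spread between its spots, and A_55_P2788443 holds a run of alternating T and G. The capitals in A_55_P2788443 mark 35 bases that recur from a later start within the same probe.
A_55_P2131438: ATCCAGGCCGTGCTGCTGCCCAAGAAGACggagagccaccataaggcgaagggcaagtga
CUST_OEV3_010314: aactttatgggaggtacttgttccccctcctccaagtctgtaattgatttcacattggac
A_55_P2788443: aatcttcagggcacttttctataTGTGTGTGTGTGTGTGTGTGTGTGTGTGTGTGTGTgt

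Levels are given as log2 of the processed signal, averaged over a probe's unflagged spots, minus the array's 75th percentile over 48821 probes measured on every array. A level of 0 is therefore the signal of a fairly bright probe, and each unit is a doubling. A probe counts as measured on an array where the scanner software called most of its unflagged spots well above background. Values of the arrays are given in the order 1, 2, 3 within a genotype. In Fscn2+/+ mice 1676, 1534 and 1586 of the 10-spot probes were measured, against 1502, 1414 and 1154 in Fscn2-/- mice. On all 6 arrays 1146 were, and on none 1630 were. Fscn2-/- array 3 had the fewest, and the counts of the genotypes did not overlap. The shares were 49.7%, 45.5% and 47.0% against 44.5%, 41.9% and 34.2%. Of the spots of single-spot probes, 50.7%, 46.0% and 48.4% were well above background in Fscn2+/+ mice. In Fscn2-/- mice 46.1%, 43.0% and 37.0% were, so the single-spot probes were also lower there, with genotypes that just overlapped.

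The genotype comparison covered the 1490 10-spot probes measured in all 3 mice of 1 genotype or of both, which are 44.2% of the 10-spot probes and compare with 63075 of all probes (43.3%). The share differed by name, with 802 of 1210 probes named A_ (66.3%) and 688 of 2162 named CUST_ (31.8%). A probe that passed only through the genotype where it is brighter had to differ, and the 1882 probes left out are described by their signal alone.

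In Fscn2-/- inner ears 13 of the 1490 10-spot probes rose at least 2-fold with an unadjusted p of at most 0.05 in limma, and 4 fell. These are 0.872% and 0.268% of the 10-spot probes tested, where 2.53% and 0.461% of all probes tested passed the same thresholds. None of the 10-spot probes had an adjusted p below 0.05 (Benjamini-Hochberg over all 63075 probes), against 0.0856% of all probes, and the lowest was 0.111. At an unadjusted p of at most 0.05 alone, 214 passed (14.4%), beside 13.9% of all probes. Across the 10-spot probes the median log2 fold change was -0.02, and 86.6% lay within 0.5 of no change, compared with a median of -0.01 and 82.4% over all tested probes. In bulk RNA, fewer cells of a type and less RNA per cell cannot be told apart.

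Counted by overlap in place of fold, the 10-spot probes stood the other way. In 247 of them every Fscn2-/- array was above every Fscn2+/+ array (16.6%), and in 140 every Fscn2-/- array was below (9.4%). Over all tested probes the shares were 12.3% and 8.29%. Of the 1490 10-spot probes tested, 1146 were measured on all arrays, and the counts were not split by this. They include probes that passed the filter only through their brighter genotype, which favours separation. The 214 probes counted by unadjusted p include such probes as well. Of the 13 risen probes 12 had genotypes that did not overlap, as had all 4 fallen ones. These probes had been selected by fold and p on the same values, so their separation is no added support. With 3 arrays against 3, the exact permutation test of a single probe cannot go below 0.1, the value each of these 16 probes had.

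The 2 kinds of names differed in their genotype differences. Of the 688 tested probes named CUST_, 11 rose (1.60%) and 0 fell. Of the 802 named A_, 2 rose (0.249%) and 4 fell (0.499%). Among single-spot probes 4.31% of those named CUST_ rose and 0.550% fell, and 1.11% and 0.395% of those named A_. The median log2 fold change was 0.10 for the CUST_ probes and -0.08 for the A_ probes, at median levels of -2.88 and -1.57. Within the dim, middle and bright bands of equal size by level, the medians were 0.08, 0.15 and 0.02 for CUST_ and -0.15, -0.05 and -0.08 for A_. The single-spot probes had the same order, with medians of 0.08 over 28162 CUST_ probes and -0.05 over 33423 A_ probes.

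Base composition also went with the difference, as a description over probes that share the arrays. The 557 tested 10-spot probes lowest in G and C (23.3% to 41.7%) had a median log2 fold change of -0.09, the 682 in the middle 0.01 and the 251 highest (46.7% to 68.3%) 0.06. Pearson's r between the number of G and C bases and the log2 fold change was 0.17 over the 1490 probes. Risen and fallen probes lay between 36.7% and 50% G and C, near the median of 43.3%.

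Among the risen probes A_51_P126620 had the largest difference. Its levels were -4.65, -4.04 and -2.71 in Fscn2+/+ and -2.06, -2.16 and -1.77 in Fscn2-/- mice. All Fscn2-/- arrays were higher, and Fscn2+/+ array 3 lay closer to them than to the other Fscn2+/+ arrays. The log2 fold change was 1.80 with an SE of 0.45 (3.49-fold, limma p of 0.00428, adjusted p of 0.225). Each of its 10 spots taken alone gave a rise, from 0.78 to 2.36, and 9 of the 10 passed both thresholds. Here and below, spots taken alone include those with an outlier flag.

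CUST_OEV3_092900 read -3.60, -3.40 and -2.02 in Fscn2+/+ mice and -1.82, -1.67 and -1.50 in Fscn2-/- mice. The genotypes did not overlap, and Fscn2+/+ array 3 again stood next to the Fscn2-/- arrays. Its log2 fold change was 1.34 ± 0.39 (SE, adjusted p of 0.267 in limma). For CUST_OEV3_069710 the levels were -2.46, -2.05 and -0.96 against -0.86, -0.58 and -0.38, a log2 fold change of 1.21 ± 0.37 (SE, adjusted p of 0.277 in limma). Here Fscn2+/+ array 3 was just below the lowest Fscn2-/- array. In both probes 8 of 10 spots passed the thresholds alone.

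CUST_OEV3_044360 was more evenly separated, at -2.67, -2.36 and -1.96 in Fscn2+/+ and -1.43, -1.33 and -1.10 in Fscn2-/- mice. The rise was 1.04 ± 0.22 on the log2 scale (SE, adjusted p of 0.170 in limma), all 60 of its spots over the arrays were free of outlier flags, and its spots ranged from 0.50 to 1.64. CUST_OEV3_054868 read -4.65, -3.82 and -3.85 against -3.06, -2.91 and -2.82, with a log2 fold change of 1.17 ± 0.25 (SE, adjusted p of 0.179 in limma). The rise of its single spots ran from 0.29 to 2.61, the widest range among the risen probes described so far.

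CUST_OEV3_000248 was measured on 1 of 3 Fscn2+/+ arrays and on all 3 Fscn2-/- arrays. Its levels were -6.57, -5.72 and -4.45 in Fscn2+/+ and -4.19, -3.74 and -3.53 in Fscn2-/- mice, and the 2 lowest readings had no spot well above background. It entered the test only through Fscn2-/- mice, so its fitted log2 difference of 1.76 describes readings partly at background and is no support for a rise. Against Fscn2+/+ array 3, the measured one, the Fscn2-/- mean was higher by 0.63. The same 60 bases are printed once more under the name CUST_OEV3_000247, which read -7.42, -5.59 and -5.44 against -3.63, -3.19 and -3.44. That spot was measured on 3 of the 6 arrays, and no difference is given for it.

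The remaining risen probes named by the rule were CUST_OEV3_064214, CUST_OEV3_075824, CUST_OEV3_062294 and CUST_OEV3_039794, with log2 fold changes of 1.14, 1.14, 1.04 and 1.03. Their genotypes did not overlap, and their adjusted p in limma ran from 0.174 to 0.264. The 3 that passed the thresholds outside the rule, named after their values were seen, were CUST_OEV3_083476 (1.02), CUST_OEV3_046630 (1.04) and A_51_P333923 (1.12). A_51_P333923 read -2.85, -2.22 and -4.01 in Fscn2-/- mice against -4.27, -4.13 and -4.03 in Fscn2+/+ mice, so its rise lay in 2 of the 3 Fscn2-/- mice. In CUST_OEV3_046630 the genotypes overlapped.

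Of the fallen probes A_55_P2119552 had the lowest adjusted p of the 10-spot probes. It read -0.77, -0.84 and -1.41 in Fscn2+/+ and -2.16, -2.26 and -2.27 in Fscn2-/- mice. The Fscn2-/- values were nearly equal, and Fscn2+/+ array 3 lay between them and the other Fscn2+/+ arrays. The log2 fold change was -1.22 ± 0.20 (SE, 2.34-fold lower, adjusted p of 0.111 in limma). Spot by spot the fall ran from -1.36 to -0.99, and 9 of 10 spots passed the thresholds alone, so this probe moved little with position.

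A_52_P130362 read -2.54, -2.99 and -3.36 in Fscn2+/+ and -4.38, -3.48 and -4.54 in Fscn2-/- mice, with Fscn2-/- array 2 close to Fscn2+/+ array 3. Its log2 fold change was -1.17 ± 0.33 (SE, adjusted p of 0.257 in limma), and on Fscn2-/- array 3 none of its 10 spots was well above background. This probe too passed the filter only through Fscn2+/+ mice, where it is brighter, so the fit is no support for a fall. A_55_P2736874 was measured on no Fscn2-/- array, where it read -5.07, -5.24 and -5.50 against -3.90, -4.45 and -4.45 in Fscn2+/+ mice. Against the lowest measurable signal of those arrays it was at least 1.13-fold lower in Fscn2-/- mice, with an adjusted p of 0.180 in limma. It entered the test only through Fscn2+/+ mice, the genotype where it is brighter, so that p gives no support of its own. Among its spots, 1 in the area of raised signal described further on gave a rise of 0.34, and the other 9 gave falls.

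A_55_P2565734 was the brightest of the called probes. Its levels were 2.36, 1.21 and 1.81 in Fscn2+/+ and 0.80, 0.31 and 1.21 in Fscn2-/- mice, and Fscn2+/+ array 2 lay barely above Fscn2-/- array 3. The log2 fold change was -1.02 ± 0.34 (SE, adjusted p of 0.288 in limma), and its 10 spots fell between -1.09 and -0.88. A pair of single-spot probes carries overlapping sequence from the same repeated motif. A_55_P2565704 shares 34 bases with it and read 2.41, 1.30 and 1.79 against 0.85, 0.40 and 1.22, a log2 difference of -1.01. A_55_P2565709 shares 34 bases as well and read 2.07, 0.83 and 1.48 against 0.64, -0.01 and 0.96, a difference of -0.93. Over the 6 arrays A_55_P2565704 had the same order as the 10-spot probe, and in A_55_P2565709 Fscn2-/- array 3 lay above Fscn2+/+ array 2. Labelled RNA that binds 1 of them could bind the others, so they are not separate measurements of 3 RNAs.

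The probes with the least and the most agreement between spots were taken among those measured on all 6 arrays. CUST_OEV3_010314 had the smallest spread, with an SD of 0.02 to 0.06 between its spots within an array. It read 3.12, 3.25 and 3.11 in Fscn2+/+ and 3.07, 3.14 and 3.24 in Fscn2-/- mice, a log2 fold change of -0.01 ± 0.15 (SE). The genotypes overlapped fully. Over the arrays together CUST_OEV3_043768 had the largest, with an SD of up to 1.01 within an array. On a single array CUST_OEV3_075824 reached 1.58, CUST_OEV3_054868 1.32 and CUST_OEV3_046630 1.05. Of the 10 spots of CUST_OEV3_043768, 6 lay in the area of raised signal. Its log2 fold change was 0.46 ± 0.28 (SE, 95% interval -0.20 to 1.13), while its single spots gave values from -0.76 to 2.04. From the spots outside that area alone the difference was 1.14 (unadjusted limma p of 0.0520).

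The brightest 10-spot probe, A_55_P2131438, read 6.88, 6.94 and 7.33 in Fscn2+/+ and 7.14, 6.99 and 6.75 in Fscn2-/- mice. The log2 fold change was -0.09, with a 95% interval of -0.54 to 0.36. The other bright probes that share its sequence are 6 single-spot probes, which have 29 to 38 bases in common with it, mean levels in Fscn2+/+ mice of 7.28 to 7.76 and log2 differences of -0.20 to -0.05. CUST_OEV3_058798 and CUST_OEV3_009504 followed in brightness, with means of 6.64 ± 0.20 and 5.55 ± 0.25 in Fscn2+/+ and 6.53 ± 0.15 and 5.72 ± 0.05 in Fscn2-/- mice (SD, n = 3). None of the 3 brightest differed beyond the spread between mice.

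For A_55_P2788443, whose sequence is mostly a dinucleotide repeat, 38 single-spot probes share 25 to 38 bases, the most of any member. All 38 were tested, and their log2 fold changes ran from -0.42 to -0.01 with a median of -0.27, beside -0.29 for A_55_P2788443 itself. Of all 3372 members, 197 share at least 25 bases in the same orientation with a probe of another sequence, and 20 are complementary to 1 over that length. In 88 same-orientation pairs both probes were measured throughout, and their log2 fold changes differed by a median of 0.09 in size. In 5 members a run of 20 or more bases occurs again within their own 60, and of the 3 of these that were tested none passed the fold and p thresholds.

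Exact copies under other names gave another reading of some members. All 60 bases of 81 members, each named CUST_, are also printed under 105 single-spot names. In 13 pairs, from 11 members, both probes were measured throughout. Their log2 fold changes differed by a median of 0.04 in size and at most 0.34, and 12 of the 13 pairs had the same sign. CUST_OEV3_005675 gave -0.15 from 10 spots and -0.24 from its copy, and CUST_OEV3_029999 gave -0.18 from both. The pair furthest apart was CUST_OEV3_060695, at 0.21 from 10 spots and 0.56 from 1.

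A shift by 1 base gave less agreement in CUST_OEV3_054868. Its rise of 1.17 compares with 0.64 for CUST_OEV3_013177 and -0.10 for CUST_OEV3_013178, which both carry the 60 bases shown above that begin 1 base later. CUST_OEV3_013177 read -4.00, -3.35 and -2.61 in Fscn2+/+ and -2.98, -2.02 and -3.02 in Fscn2-/- mice. CUST_OEV3_013178 read -3.64, -3.51 and -2.60 against -4.03, -2.99 and -3.04. Neither passed the thresholds, their genotypes overlapped, and both single spots lay in the area of raised signal, where 2 of the 10 spots of CUST_OEV3_054868 lay. For CUST_OEV3_075824, which rose by 1.14, the probe CUST_OEV3_075822 shares 28 bases and differed by 0.04 between genotypes, with its only spot in the same area.

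Within an array the 10 spots of a probe agreed closely. For the 1146 measured throughout, the median SD of log2 signal between unflagged spots was 0.105, 0.104 and 0.113 in Fscn2+/+ and 0.101, 0.107 and 0.0967 in Fscn2-/- mice. The genotypes overlapped. The highest and lowest spot of a probe lay 1.24-fold to 1.28-fold apart at the median. Before the software's correction for gradients the median SD was 0.116 to 0.158, and that correction was fitted on 10-spot probes alone, with 7060 to 11770 of their spots and no single-spot probe.

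The spread between mice was larger than that between spots. With 1 array to a mouse, the spread between mice also holds differences between arrays and, in Fscn2+/+ mice, between slides. These parts cannot be told apart. The median SD between mice of a genotype was 0.188, against 0.115 between spots and 0.0365 for the standard error of a mean of 10 spots. Between mice the SD exceeded that standard error in 1133 of 1146 probes. With 1 spot, the spots would make up a median of 30.5% of the variance of a reading, and with 10 spots 4.38% of the variance of their mean. In the dimmest 382 of these probes the spread of spots was 0.191 and in the brightest 382 it was 0.0782, while between mice it was 0.219 and 0.164.

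Within the 3 bands of level of all tested probes, the 10-spot probes had lower median SDs between mice and lower shares past the thresholds for a rise, a difference given as a description. In the dim band the median SD between mice was 0.260 for 10-spot and 0.358 for single-spot probes, and 1.41% and 4.97% of them were higher in Fscn2-/- mice by both thresholds. In the middle band the SDs were 0.206 and 0.259 and the shares 1.21% and 2.44%. In the bright band the SDs were 0.165 and 0.187, with 0 of 497 10-spot probes and 0.458% of single-spot probes higher.

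Replacing the mean of the unflagged spots by 1 spot gave more calls of a rise. The single spots were used whether flagged or not, so the number of spots and the use of flagged ones changed together. With each spot in turn, 24 to 47 of the 1490 probes were higher (1.61% to 3.15%, median count 34), where over all probes 2.55% to 2.59% were. Lower were 4 to 10 probes, with 0.46% to 0.468% over all probes. In all, 165 members were higher by at least 1 of their spots, 89 of them by 1 spot only, 18 by 5 or more and 0 by all 10. Of the 13 probes risen by the mean, 5 to 11 were among those called from any given spot.

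In the called probes the array that shares a slide with the other genotype stood between the groups. Fscn2+/+ array 3 was the highest Fscn2+/+ array in 12 of the 13 risen probes and the lowest in 3 of the 4 fallen ones, and was the highest in 34.0% of all tested 10-spot probes. With slide as a block, which here compares this array with the Fscn2-/- arrays on that slide alone, 1 probe was higher and 0 lower, where 1.69% and 0.46% of all probes were. A_51_P126620 then differed by 0.72, CUST_OEV3_092900 by 0.35, A_55_P2119552 by -0.82 and A_55_P2565734 by -1.03, all with the sign of the first fit and none past both thresholds.

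The probe higher with slide as a block was A_55_P2053575, named for that reason. It read -4.54, -4.40 and -4.78 in Fscn2+/+ and -3.69, -3.92 and -3.62 in Fscn2-/- mice. The genotypes did not overlap, and the difference was 0.83 ± 0.17 over all arrays and 1.03 ± 0.23 with the block (SE, adjusted p of 0.174 and 0.519 in limma).

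Without Fscn2+/+ array 3 the slide and the genotype coincide. Then 32 members were higher (2.15%, against 4.03% of all probes) and 4 lower (0.268%, against 0.729%). An adjusted p below 0.05 in limma was reached by 17 members (1.14%, against 1.75% of all probes). The lowest adjusted p values were those of CUST_OEV3_092900 (0.0190), A_51_P126620 (0.0194) and A_55_P2119552 (0.0233). The part of the slide in these differences cannot be told apart from that of the genotype in this fit. Without Fscn2+/+ array 1 the counts were 4 higher and 1 lower, beside 1.63% and 0.308% of all probes. Leaving out Fscn2+/+ array 2 gave 15 and 8, beside 2.04% and 0.794%. Leaving out Fscn2-/- array 1 gave 23 and 4, beside 3.22% and 0.805%.

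Other ways of processing changed the split of calls. Quantile normalization gave 4 higher and 8 lower members, with 1.6% and 1.41% of all probes. Scaling to the 75th percentile of every probe gave 5 and 5, with 1.76% and 1.07%, and moved the median log2 fold change over the 63075 probes to -0.18. Correcting the raw signal with normexp, with an added offset of 50 and without the software's gradient correction, gave 0 and 0, with 0.246% and 0.0317%. Many called probes have signals of the size of this offset. A_51_P126620, with processed signals of 18.6 to 168 on the arrays, then differed by 0.86 in place of 1.80. Run on the values of the first fit, the methods' t-test gave 8 and 3, with 1.24% and 0.325%. All 17 called probes kept their direction under each of these settings.

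The probes left out as too dim differed most. Without the filter, 137 of 3372 members were higher (4.06%, against 9.05% of all probes) and 5 lower (0.148%, against 0.572%). The 1630 probes measured on no array had median levels of -7.25, -7.11 and -7.11 in Fscn2+/+ and -6.87, -6.60 and -5.90 in Fscn2-/- mice. The genotype means were higher in Fscn2-/- mice for 94.0% of them, by a median of 0.73. By the software's call these signals were not above background, and they give no measure of RNA abundance.

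Part of the arrays had raised dim signal, and 27.5% of the 10-spot probes' spots lay in it. Each array was divided into 16 by 8 equal blocks, and this area is the 35 blocks whose 25th percentile of raw signal was over 1.2 times the middle value of the blocks on 1 or more arrays. Most members have spots both inside and outside, so that the same sequence could be compared with itself. For 1564 probes measured on no array, with flagged spots kept, the log2 signal inside minus outside was -0.12, -0.08 and 0.47 in Fscn2+/+ mice. In Fscn2-/- mice it was 0.73, 0.76 and 0.88. The 4 arrays of the second slide were positive and the 2 of the first slide negative, with genotype means of 0.09 ± 0.33 and 0.79 ± 0.08 (SD, n = 3). The area was drawn from the raw signal of these same arrays, so this contrast is a description and no test is read from it. With flagged spots left out the values were -0.07, -0.03 and 0.27 in Fscn2+/+ and 0.30, 0.39 and 0.20 in Fscn2-/- mice, and the genotypes overlapped.

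For probes measured on all arrays the spots inside and outside differed little on average. There the unflagged spots inside minus outside gave 0.02, 0.01 and -0.04 on Fscn2+/+ and -0.02, -0.03 and -0.07 on Fscn2-/- arrays, with overlapping genotypes (exact permutation p of 0.3). Among the brightest 382 of these probes all 6 arrays lay between -0.02 and 0.02. Among the dimmest 382 the values were 0.06, 0.03 and -0.10 on Fscn2+/+ and -0.05, -0.07 and -0.16 on Fscn2-/- arrays. These values depend on leaving out flagged spots. With flagged spots kept, the dimmest gave 0.07, 0.03 and -0.14 on Fscn2+/+ and -0.0018, -0.04 and 0.03 on Fscn2-/- arrays. Leaving out the spots inside gave 22 higher and 4 lower members, or 1.48% and 0.268%. Over all probes the shares were then 2.55% and 0.46%, with single-spot probes left as they were.

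Outlier flags were unevenly placed too. Flagged were 1254, 1291 and 1574 of the members' spots in Fscn2+/+ and 2377, 2328 and 3419 in Fscn2-/- mice. Inside the area the flagged share was 3.00%, 2.89% and 10.5% in Fscn2+/+ and 20.3%, 19.5% and 32.2% in Fscn2-/- mice. Outside it was 3.99%, 4.18% and 2.47% against 2.03%, 2.15% and 1.78%. Every array of the second slide had a higher share inside, and no single-spot probe received a flag that rests on replicate spots. Where exactly 1 of 10 spots was well above background, that spot lay inside the area in 14.9% and 16.2% of cases on the first slide and in 59.3%, 90.7%, 87.4% and 97.3% on the second.

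Positions could be given for 12 members, whose 60 bases match exactly 1 of the 32851 RefSeq promoter windows of GRCm38.p6, which run from before to just after a gene's start. In 4 the probe has the strand of the gene and in 8 the opposite strand, so a match gives a position and not a measured transcript. The 3 measured on all arrays are shown because their place is known.
A_66_P106546: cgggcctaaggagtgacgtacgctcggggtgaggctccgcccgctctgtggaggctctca
CUST_OEV3_065378: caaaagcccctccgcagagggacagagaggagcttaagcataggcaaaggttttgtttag
A_52_P383828: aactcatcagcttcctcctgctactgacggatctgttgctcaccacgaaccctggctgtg

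A_66_P106546 lies at chr10:61680145-61680204 on the minus strand, 81 to 140 bases before the start of Sar1a, a small GTPase that builds the coat of vesicles leaving the endoplasmic reticulum, on the opposite strand. It read -2.60, -2.60 and -2.46 in Fscn2+/+ and -2.27, -2.22 and -1.99 in Fscn2-/- mice. The genotypes did not overlap, and the log2 fold change was 0.40 ± 0.16 (SE, limma p of 0.0383). Its single spots gave -0.19 to 1.55 with a median of 0.06, and 4 of the 10 lay in the area of raised signal. From the spots outside that area the difference was -0.02 (limma p of 0.882), so the rise was not seen without them.

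CUST_OEV3_065378 lies at chr17:14203946-14204005 on the plus strand, before and opposite to Dact2, whose product binds Dishevelled and acts in Wnt signalling. It read -3.65, -3.47 and -3.24 in Fscn2+/+ and -3.01, -3.06 and -3.21 in Fscn2-/- mice, a log2 fold change of 0.36 ± 0.17 (SE, limma p of 0.0691). The genotypes did not overlap, and its single spots ranged from -0.36 to 1.87. A_52_P383828 lies at chr6:135241290-135241349 on the minus strand, before and opposite to the long noncoding RNA LOC115490439. Its mean levels of -0.94 ± 0.08 in Fscn2+/+ and -0.82 ± 0.20 in Fscn2-/- mice (SD, n = 3) came from values that overlapped, with a log2 fold change of 0.12 ± 0.17 (SE).

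Of the other 9 located members, 2 were tested. A_52_P661496 lies before Gzmm, the gene of granzyme M of natural killer cells, on its strand, and was measured on all 3 Fscn2+/+ arrays and on no Fscn2-/- array, so no fold is given. A_66_P134421 lies before and opposite to Zfyve9, which brings Smad proteins to receptors of the TGF-beta family, and differed by -0.19 (95% interval -0.98 to 0.59). Of all 12, 6 were measured on no array, among them those before Exosc6, a subunit of the RNA exosome, and Mgl2, a lectin of macrophages.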

How the data were processed

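The arrays measured inner ear RNA of 3 Fscn2+/+ and 3 Fscn2-/- mice, grouped by the labelled genotype. The authors deposited spot intensity values and flags as Agilent Feature Extraction 10.7.1.1 wrote them, with background subtracted and gradients corrected in the processed signal. Per the file headers the gradient correction at each spot is a ratio, the height of a surface that the software fitted on replicated spots. The log2 values in the authors' processed table equal, for the 10-spot probes, quantile-normalized signal over all 10 spots, flagged ones included (SD of the difference 0.0029).

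Here log2 processed signal was averaged over spots without a population or uniformity outlier flag. In 47 pairs of a probe and an array every spot was flagged, and these were kept. After scaling to the 75th percentile, all tested probes were fitted together in limma 3.58.1 (R 4.3.3) with genotype as the only term. Thresholds were a fold change of 2 and a p of 0.05, as in the study, or an adjusted p below 0.05. The steps were tested on simulated data. P-values rest on the spread between these 6 mice together with that between their arrays and slides, and the number of arrays limits their precision.

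Named probes were the 10 largest rises and falls beyond the fold and p thresholds, with no overlap of the genotypes and signal above background on all arrays. Where fewer met this, those above background on every array of 1 genotype followed. The 3 brightest probes and those with the extreme spot spreads were added. The members, lists and tests were chosen with earlier results of these data known. Marker gene lists were not applied, because the files name no genes. RefSeq promoter windows (GRCm38.p6) gave positions, and no genome was used here. The alternatives were other scalings, background corrections, filters and summaries of the spots, the slide or replicate number in the fit, and leaving out each array.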

Additional observations from a re-analysis of the deposited data

How the results depend on the processing

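Of the 13 higher and 4 lower 10-spot probes, the numbers moved by over 1.5 times as follows. Higher probes numbered 4 with quantile normalization, 5 with the 75th percentile over all probes, 5 with the authors' processed values, 0 with normexp, 137 with no filter, 8 with the methods' t-test, 1 with slide as a block, 22 with spots outside the area of raised signal, 22 where any spot well above background sufficed and 93 at a fold of 1.5. Lower probes numbered 8 with quantile normalization, 0 with normexp, 2 when measured on all arrays, 0 with slide as a block and 25 at a fold of 1.5. With 1 spot in place of 10 the higher probes numbered 37, 47, 45, 43, 31, 34, 24, 32, 34 and 28 for spots 1 to 10, and the lower ones 7, 7, 8, 8 and 10 for spots 5, 6, 7, 8 and 10. The other alternatives left both counts within 1.5 times. Leaving out each array gave 4 to 32 higher, 1 to 8 lower and 0 to 17 with an adjusted p below 0.05, the 17 without Fscn2+/+ array 3. Spot 6 alone gave 1 such probe, and all other settings gave 0.

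Replicate numbers do not pair these mice, since deviations of arrays with the same number correlated at 0.23, 0.03 and -0.03 over 63075 probes. The replicate number as a block left 13 higher and 4 lower probes, with 0 past the adjusted threshold, and the median log2 fold change stayed at -0.02.

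The median log2 fold change was 0.33 with no filter and -0.05 to 0.04 when an array was left out. The spread between spots averaged 0.104 over arrays, 0.125 with flagged spots kept, 0.179 over all 10-spot probes and 0.0930 with normexp. The genotype difference of the contrast inside against outside the area was -0.04. It was 0.0030 among the brightest 382 of the probes measured throughout and -0.09 among the dimmest 382. Leaving out an array gave -0.05 to -0.02. With flagged spots kept, a setting also added after the data were seen, the difference was -0.0077. It was then -0.013 among the brightest 382 and 0.0063 among the dimmest 382. Probes well above background on no array, with flagged spots kept, gave 0.70, a setting chosen after seeing the data. The 17 called probes kept their direction in every setting but 4 single spots, with -0.059 for CUST_OEV3_075824, 0.34 for A_55_P2736874, -0.40 for CUST_OEV3_046630 and -0.00059 for CUST_OEV3_083476. Among the reference probes, differences near no change took the other sign in some settings. A_55_P2131438 was at 0.05 without Fscn2+/+ array 3, and CUST_OEV3_010314 was at 0.04 with slide as a block. The cause of these changes was not tested. Signals near background limit the dim probes.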
